A study of Mus musculus with 15 samples.

Results

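The RNA levels of 8 genes that form the core of apoptosis and necroptosis signalling were examined in mouse skin: *Ripk1*, *Ripk3*, *Mlkl*, *Zbp1*, *Fadd*, *Tradd*, *Casp8* and *Cflar*. The members were taken as the rows of the count table with these gene symbols, without use of their values in the rule, and all 8 were found among the 55487 genes of the deposited count table. Libraries came from whole skin of 3-week-old C57BL/6 mice and fell into 3 groups of 5. WT skin came from littermates that carried loxP-flanked *Otulin* alleles without Cre. The other groups were non-lesional and lesional skin of OTULIN E-KO mice (*Otulin* fl/fl *K14-Cre*), in which the keratin 14 promoter drives Cre in keratinocytes, so that fibroblasts, muscle, fat and immune cells in the same samples keep their *Otulin* alleles. OTULIN is the deubiquitinase that takes apart linear ubiquitin chains. The sources used here do not say whether lesional and non-lesional skin was taken from the same animals, and p-values therefore measure the spread between these samples.

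Signals from TNF receptor 1 are passed on by the adaptor TRADD and the kinase RIPK1, and the ubiquitin chains built on RIPK1 keep the complex in an inflammatory and pro-survival state. When that state is lost, FADD recruits caspase-8, the protease that starts apoptosis, and the caspase-8-like protein cFLIP, encoded by *Cflar*, restrains it. Active caspase-8 also cleaves RIPK1 and RIPK3, and where it is blocked RIPK3 phosphorylates MLKL, which then breaks the plasma membrane in necroptosis. ZBP1 is a sensor of Z-form nucleic acids that can engage RIPK3 directly and is itself induced by interferon. These steps are regulated largely by phosphorylation, ubiquitination and cleavage, which RNA levels do not measure.

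The total per library ran from 1962604 to 2567138 counts, of which 18.3% to 23.2% fell on its 10 most abundant genes. Lesional replicates 2 and 11 stood apart from the other 3 lesional libraries. Their summed level of 7 hyperplastic epidermis genes, led by *Krt6a*, was 13540 and 33240 CPM (counts scaled to the library size after TMM normalization, edgeR's trimmed-mean scaling), against 736 to 971 CPM in the other lesional and 660.0 to 2195 CPM in WT libraries. The 7 neutrophil genes, led by *S100a9*, summed to 2984 and 5092 CPM there, 4.003 to 10.7 CPM in the other lesional, 1.69 to 6.57 CPM in WT and 3.40 to 218 CPM in non-lesional libraries. *S100a8* and *S100a9*, which keratinocytes also express, carried this sum, while the neutrophil genes *Ly6g* and *Csf3r* were at 0 in every library. Other neutrophil genes were detected, with *Retnlg* at 0.453 CPM (1 count) in lesional replicate 2 and 11.4 CPM (23 counts) in replicate 11, and *Cxcr2* at 4.98 and 5.47 CPM (11 counts each). Keratinocyte genes, led by *Krt10*, were present throughout (5911 to 14610 CPM summed over 7 genes). So were those of fibroblasts, led by *Col1a1* (16270 to 67740 CPM over 6 genes), macrophages, led by *Mrc1* (331 to 661 CPM over 8), and skeletal muscle, led by *Acta1* (3572 to 34410 CPM over 8). *Fabp4* led the 6 adipocyte genes (1335 to 3756 CPM), *Hba-a1* the 4 erythrocyte genes in the table (781 to 3784 CPM), *Cd3e* the 4 T cell genes in the table (10.1 to 24.1 CPM) and *Krt25* the 7 hair follicle keratins in the table (3.48 to 308 CPM). In lesional replicate 11, the highest library for *Casp8*, *Mlkl* and *Zbp1*, the muscle, adipocyte and fibroblast (16270 CPM) sums were the lowest of all and the keratinocyte sum (14610 CPM) was the highest, followed by that of lesional replicate 2 (11290 CPM). The part of these shifts in the levels of the 8 genes was not tested. Whole skin is a mixture, in which fewer cells of a type and less RNA per cell cannot be told apart. *Otulin* itself was measured at 22.9 ± 6.48 CPM in WT, 25.9 ± 4.12 in non-lesional and 24.5 ± 3.31 in lesional skin (mean ± SD, n = 5 each). The exon removed by Cre is not given in the sources used here and the reads come from transcript 3′ ends of all skin cells, so this level does not check the deletion.

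Over the 15 libraries the 8 genes spanned a wide range of levels. The libraries count about 1 read per transcript from its 3′ end, and CPM were therefore compared between genes without division by length. *Cflar* was the most abundant at 55.9 ± 7.33 CPM (SD, n = 15), followed by *Ripk1* at 49.1 ± 7.23 CPM, and together they held 68.6% of the 5314 counts of the 8 genes. These neighbours overlapped, *Cflar* being the higher in 11 of 15 libraries. A gap separated them from *Casp8* (14.5 ± 3.85 CPM), since the lowest *Ripk1* library (40.1 CPM) lay above the highest *Casp8* library (25.4 CPM). *Tradd* (14.1 ± 4.26 CPM) did not differ from *Casp8* beyond the spread, and *Casp8* was the higher in 7 of 15 libraries. *Fadd* followed at 9.81 ± 2.88 CPM, below *Tradd* in 11 libraries. The necroptosis genes had the lowest levels: *Zbp1* at 4.01 ± 7.08 CPM, *Mlkl* at 3.54 ± 3.26 CPM and *Ripk3* at 2.80 ± 1.45 CPM. Their order was not resolved, as *Zbp1* exceeded *Mlkl* in 6 of 15 libraries and *Mlkl* exceeded *Ripk3* in 8 of 15.

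**Figure D1:**
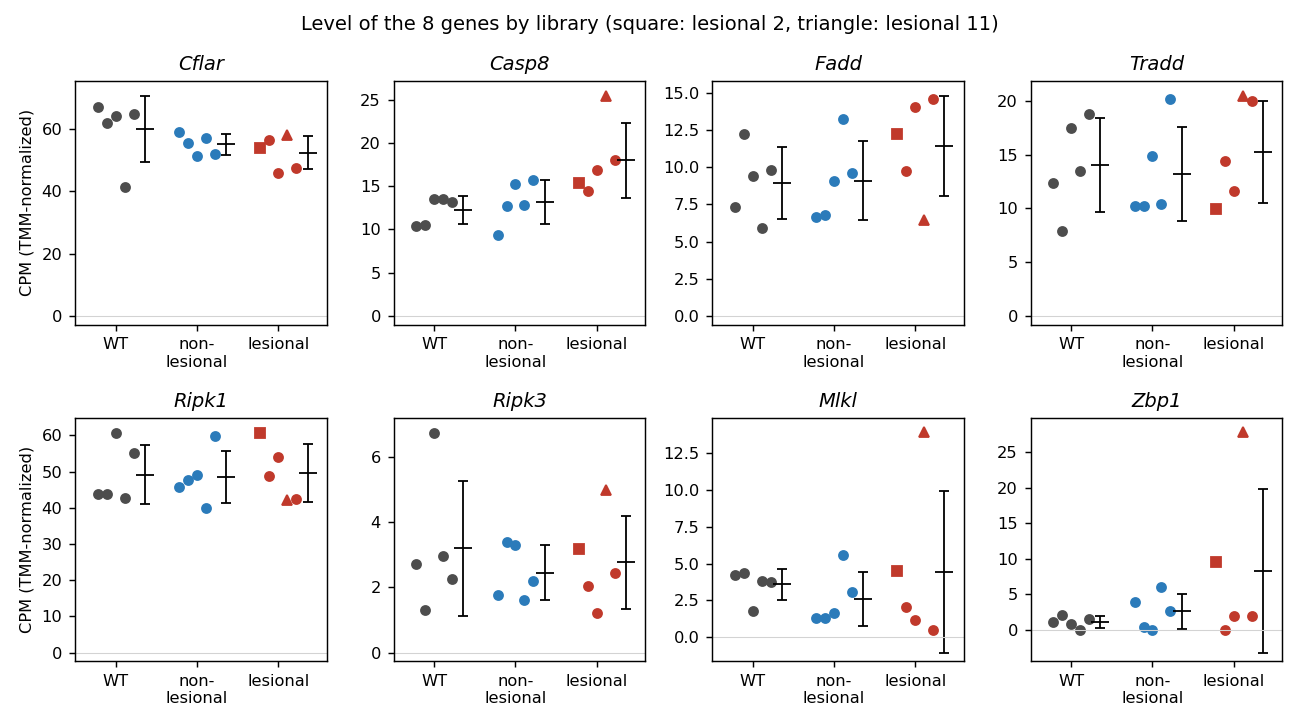
CPM (TMM-normalized, vertical axes) of each gene in every library, by group on the horizontal axes; a point is a library, and bars show the mean and SD of 5 libraries. *Casp8* in the lesional libraries (14.4 to 25.4 CPM) sits above every WT library (10.4 to 13.5 CPM), while lesional replicates 2 and 11 stand out for *Zbp1* (9.50 and 27.9 CPM) and replicate 11 alone for *Mlkl* (13.9 CPM).

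To examine whether loss of OTULIN in keratinocytes was accompanied by altered RNA levels of this machinery, each pair of groups was compared with edgeR's quasi-likelihood test across all genes. *Cflar*, *Casp8*, *Fadd*, *Tradd* and *Ripk1* passed the filter on low counts, and *Ripk3*, *Mlkl* and *Zbp1* did not, so that for these 3 genes the estimates come from the same fit without the filter. None of the 8 genes had a Benjamini-Hochberg adjusted p under 0.05 in any comparison. In the fits with the filter no other gene did: 0% of 13021 genes tested passed between non-lesional and WT skin, 0% of 12918 between lesional and WT skin and 0% of 12864 between lesional and non-lesional skin. At an unadjusted p under 0.05 these fits gave 411, 621 and 543 genes. The fit without the filter called 18 genes between non-lesional and WT skin, none of them a member, and 0 between lesional and WT skin. With DESeq2's Wald test 1, 14 and 0 genes passed the adjusted threshold, none of them a member. All 24 member comparisons were also given a two-sided exact permutation test of log2(CPM + 0.5) over all regroupings of the 10 libraries, whose smallest possible p is 0.0079; these p-values are not adjusted.

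*Casp8* (ENSMUSG00000026029), encoding the initiator caspase of the death receptor pathway, and *Cflar* (ENSMUSG00000026031), encoding its restraining partner cFLIP, are neighbours on mouse chromosome 1. In GRCm38, *Cflar* spans chr1:58711508-58758884 and *Casp8* chr1:58795374-58847503, both on the forward strand, with 36490 bases between them. The 250 bases before a RefSeq start of each gene (GRCm38.p6, forward strand) are shown because the ratio of these neighbours is the result that separated the groups most clearly among the ratios compared. The *Cflar* window lies at chr1:58711241-58711490 and the *Casp8* window, within an intron of its longer transcripts, at chr1:58802252-58802501.
Cflar: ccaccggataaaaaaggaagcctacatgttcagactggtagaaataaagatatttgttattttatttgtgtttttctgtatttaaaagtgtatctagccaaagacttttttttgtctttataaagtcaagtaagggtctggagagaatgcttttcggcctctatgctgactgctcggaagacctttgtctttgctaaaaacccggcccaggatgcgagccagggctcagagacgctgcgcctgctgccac
Casp8: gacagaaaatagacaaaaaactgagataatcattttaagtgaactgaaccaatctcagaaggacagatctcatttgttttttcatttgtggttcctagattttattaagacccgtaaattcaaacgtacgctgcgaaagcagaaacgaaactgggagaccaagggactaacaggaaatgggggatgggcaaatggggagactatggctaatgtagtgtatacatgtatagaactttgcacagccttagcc
Both windows were searched on both strands for the letters GAAA repeated after any 2 bases, a core of the interferon-stimulated response element, and TTCNNNGAA, a core of STAT binding sites, and any match would be in capitals. Neither window held a match. Of the windows searched for 6 of the 8 genes, 1 of the 2 at *Ripk1* starts held 2 matches to TTCNNNGAA, and the others held none. Among the windows of 32851 RefSeq starts, 2.98% held the former and 7.02% the latter. The GC content was 42.8% for *Cflar* and 39.6% for *Casp8*, below the median of 52.4% over all windows.

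*Casp8* was the member that differed most consistently between lesional and WT skin. WT replicates 1, 4, 7, 10 and 13 measured 10.4, 10.5, 13.5, 13.5 and 13.2 CPM, or 24 to 35 counts. Lesional replicates 2, 5, 8, 11 and 14 measured 15.4, 14.4, 16.8, 25.4 and 18.0 CPM, or 28 to 51 counts. The groups did not overlap, with every lesional library above every WT library, which was the case for 0.449% of the 12918 genes tested. The log2 fold change was 0.56 (SE 0.21, 95% interval 0.10 to 1.02), a fold of 1.47, and the exact permutation p was 0.0079, the smallest this design can give. The edgeR p was 0.0206 before and 0.926 after Benjamini-Hochberg adjustment over all genes, so that the difference did not pass the threshold. An unadjusted p under 0.05 with a higher level in lesional skin was found for 3.24% of the genes tested.

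Non-lesional skin lay between these groups for *Casp8*. Replicates 3, 6, 9, 12 and 15 measured 9.35, 12.8, 15.3, 12.8 and 15.8 CPM, overlapping both other groups. Against WT skin the log2 fold change was 0.11 (SE 0.21, 95% interval -0.32 to 0.54; edgeR adjusted p = 0.9998). Lesional exceeded non-lesional skin by 0.45 on the log2 scale (SE 0.22, 95% interval -0.02 to 0.92; edgeR adjusted p = 0.973), with an exact permutation p of 0.0397. That difference was 0.29 without lesional replicate 11 and 0.31 (exact permutation p = 0.107) without replicates 2 and 11. Without lesional replicates 2 and 11, the remaining 3 lesional libraries averaged 16.4 ± 1.84 CPM (SD). Their edgeR log2 fold change against WT was 0.42 (SE 0.23, 95% interval -0.08 to 0.91, edgeR adjusted p = 0.999), an interval that included 0. They lay above every WT library, with an exact permutation p of 0.0357, the smallest that 3 against 5 libraries allow. That outcome was fixed by the lack of overlap between all lesional and WT libraries, and it adds no separate support. WT libraries varied no more than counting alone would give, as their SD was 0.711 times the SD of 2.25 CPM expected from the counts.

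*Cflar* was lower on average in both OTULIN E-KO groups, within the spread. WT libraries measured 67.3, 62.1, 64.2, 41.4 and 65.0 CPM, non-lesional libraries 59.2, 55.7, 51.5, 57.3 and 52.1 CPM and lesional libraries 53.9, 56.5, 46.0, 58.2 and 47.7 CPM, in the replicate order used above. WT replicate 10 was the lowest of all 15 libraries, and each OTULIN E-KO library lay between it and the other 4 WT libraries. The log2 fold change was -0.12 (SE 0.13, 95% interval -0.40 to 0.16; edgeR adjusted p = 0.9998) in non-lesional and -0.19 (SE 0.16, 95% interval -0.54 to 0.15; edgeR adjusted p = 0.934) in lesional skin against WT. Between lesional and non-lesional skin it was -0.07 (SE 0.13, 95% interval -0.35 to 0.21; edgeR adjusted p = 0.979). Without WT replicate 10 the lesional difference was -0.30 and the non-lesional one -0.23, and the smallest unadjusted p under the alternatives run was 0.0613 and 0.0716 respectively.

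Since cFLIP and caspase-8 act as partners, the ratio of their counts was formed within each library, which needs no normalization. For 0.5 added to each count, there were 6.35, 5.82, 4.71, 3.03 and 4.89 *Cflar* counts per *Casp8* count in the WT libraries. The non-lesional libraries had 6.21, 4.31, 3.35, 4.42 and 3.27, and the lesional libraries 3.46, 3.88, 2.72, 2.28 and 2.63. WT replicate 10 was the only WT library within the lesional range. The geometric mean was 4.81 in WT, 4.19 in non-lesional and 2.94 in lesional skin. On the log2 scale the lesional ratio was lower than WT by a difference of -0.71 (1.55 ± 0.31 against 2.27 ± 0.41, SD, n = 5; exact permutation p = 0.0238). Lesional and non-lesional skin differed by -0.51 (exact permutation p = 0.0476) and non-lesional and WT skin by -0.20 (exact permutation p = 0.421). These are 3 of 9 ratio tests, and Benjamini-Hochberg adjustment over the 9 exact permutation p-values gave 0.214, 0.214 and 0.881. Without lesional replicates 2 and 11 the lesional differences were -0.67 (exact permutation p = 0.0714) from WT and -0.47 (exact permutation p = 0.107) from non-lesional skin. Leaving out non-lesional replicate 3, 6 or 12 or lesional replicate 8, 11 or 14 raised the exact permutation p of the latter comparison to 0.0952. The sample numbers follow each other as WT, lesional and non-lesional in 5 sets of 3, which no label describes. Within these sets the lesional ratio was lower than both others, and lesional *Casp8* CPM higher than both others, in 5 of 5 sets, with an exact sign-flip permutation p of 0.0625 in each case, the smallest that 5 sets allow. For *Casp8* against WT this outcome was fixed by the lack of overlap between the groups, whichever libraries share a set, and it adds no separate support.

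**Figure D2:**
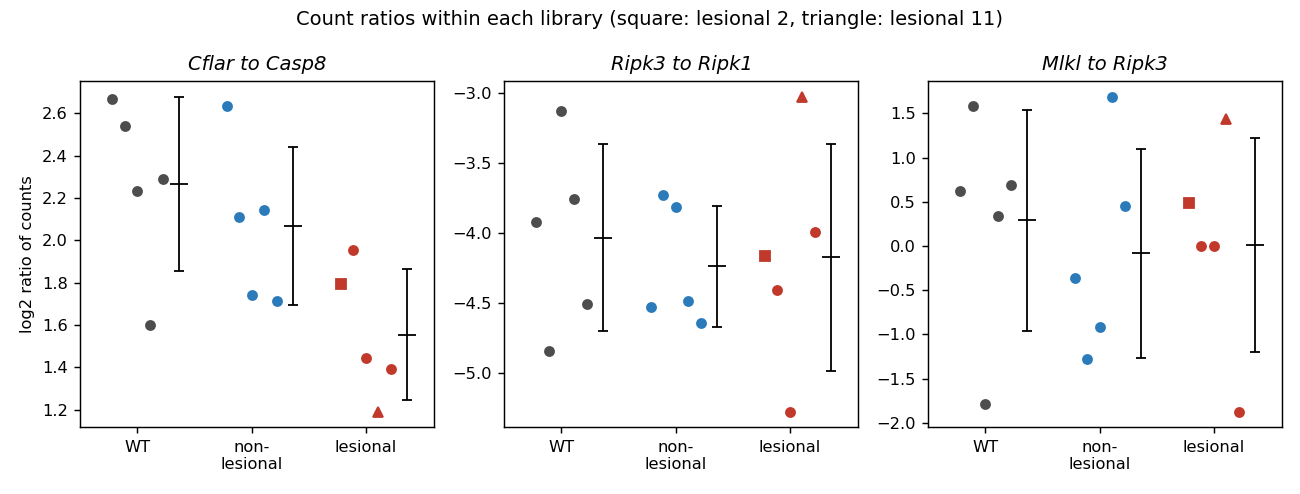
Log2 ratio of counts within each library (vertical axes, 0.5 added to each count) for 3 pairs of genes, by group on the horizontal axes; bars show the mean and SD of 5 libraries. The *Cflar* to *Casp8* ratio averages 2.27 in WT and 1.55 in lesional libraries, while the other ratios overlap widely.

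*Fadd* (ENSMUSG00000031077, chr7:144577318-144582463, reverse strand) encodes the adaptor that brings caspase-8 to death receptors and to RIPK1. It measured 7.35, 12.2, 9.42, 5.91 and 9.78 CPM in WT, 6.68, 6.81, 9.07, 13.2 and 9.63 CPM in non-lesional and 12.2, 9.76, 14.01, 6.47 and 14.6 CPM in lesional libraries. Lesional replicates 8 and 14 lay above every WT library, whereas replicate 11, the highest library for *Casp8*, was among the lowest for *Fadd*. The log2 fold change of lesional skin was 0.36 (SE 0.28, 95% interval -0.24 to 0.95; edgeR adjusted p = 0.930) against WT and 0.33 (SE 0.28; edgeR adjusted p = 0.973) against non-lesional skin. Without lesional replicates 2 and 11 these were 0.51 (SE 0.29) and 0.49 (SE 0.29). Non-lesional and WT skin differed by 0.03 (SE 0.27, 95% interval -0.53 to 0.59; edgeR adjusted p = 0.9998). Exons of *Fadd* share 239 bases with the antisense gene *Faddos* on the opposite strand, which had 11 counts over all libraries against 340 for *Fadd*. The counting options given by the study name no strand setting, and the tool then counts both strands by default, so that reads of overlapping genes on opposite strands cannot be told apart.

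*Tradd* (ENSMUSG00000031887, chr8:105258286-105264609, reverse strand) encodes the adaptor that binds TNF receptor 1. Its level varied within each group by 1.78 to 1.85 times what counting alone would give. WT libraries measured 12.4, 7.87, 17.5, 13.5 and 18.8 CPM, non-lesional libraries 10.2, 10.2, 14.8, 10.4 and 20.1 CPM and lesional libraries 9.96, 14.4, 11.6, 20.4 and 19.9 CPM. Each group held libraries near 10 and near 20 CPM, and the groups overlapped. Against WT the log2 fold change was -0.09 (SE 0.26, 95% interval -0.63 to 0.44) in non-lesional and 0.12 (SE 0.28, 95% interval -0.48 to 0.71) in lesional skin, with edgeR adjusted p-values of 0.9998 and 0.980. Lesional exceeded non-lesional skin by 0.21 (SE 0.27; edgeR adjusted p = 0.9747), and by 0.08 without lesional replicate 11 and 0.41 without non-lesional replicate 15.

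*Ripk1* (ENSMUSG00000021408, chr13:34002363-34037147, forward strand) encodes the kinase at which the survival, apoptotic and necroptotic routes divide, and its RNA had the narrowest intervals around no change together with *Cflar*. WT libraries measured 43.7, 43.7, 60.6, 42.7 and 55.3 CPM, non-lesional libraries 45.9, 47.6, 49.1, 40.1 and 60.0 CPM and lesional libraries 60.6, 48.8, 54.1, 42.3 and 42.3 CPM. The 3 group means were 49.2 ± 8.20, 48.5 ± 7.26 and 49.6 ± 7.89 CPM (SD, n = 5 each), closer to each other than the libraries within a group. The log2 fold change was -0.02 (SE 0.14, 95% interval -0.32 to 0.28) in non-lesional and 0.02 (SE 0.16, 95% interval -0.33 to 0.37) in lesional skin against WT, with edgeR adjusted p-values of 0.9998 and 0.994. Lesional against non-lesional skin gave 0.04 (SE 0.16, 95% interval -0.30 to 0.37; edgeR adjusted p = 0.993). As a fold, the lesional interval against WT ran from 0.793 to 1.29. Exons of *Ripk1* share 241 bases with *Serpinb6a* on the opposite strand, which had 9721 counts over all libraries against 1703 for *Ripk1*, and 511 bases with the pseudogene *Gm17084* on the same strand, which had 62. Counts in these stretches can belong to either gene.

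*Ripk3* (ENSMUSG00000022221, chr14:55784995-55788865, reverse strand) encodes the kinase of the necroptosis complex and had 3 to 15 counts a library. Its mean over all 15 libraries was the lowest of the 8 genes, but in WT skin *Zbp1* was lower (1.15 against 3.19 CPM). WT libraries measured 2.71, 1.31, 6.73, 2.96 and 2.26 CPM, non-lesional libraries 1.78, 3.40, 3.30, 1.60 and 2.19 CPM and lesional libraries 3.17, 2.06, 1.20, 4.98 and 2.43 CPM. WT replicate 7 was the highest of all, followed by lesional replicate 11. Without the filter on low counts, the log2 fold change was -0.36 (SE 0.49, 95% interval -1.33 to 0.61) in non-lesional and -0.20 (SE 0.53, 95% interval -1.27 to 0.86) in lesional skin against WT, with edgeR adjusted p-values of 0.913 and 0.950. Lesional against non-lesional skin gave 0.16 (SE 0.53; edgeR adjusted p = 0.970). As a fold, the intervals ran from 0.399 to 1.52 in non-lesional and from 0.416 to 1.82 in lesional skin. The WT SD was 1.80 times what counting alone would give, with WT replicate 7 the highest. Leaving out WT replicate 7 turned the differences from WT to 0.08 in non-lesional and 0.24 in lesional skin.

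*Mlkl* (ENSMUSG00000012519, chr8:111311797-111338177, reverse strand) encodes the protein that carries out necroptosis downstream of RIPK3. WT libraries measured 4.25, 4.37, 1.79, 3.8 and 3.76 CPM, with replicate 7 apart from the rest. Non-lesional libraries measured 1.34, 1.28, 1.65, 5.61 and 3.06 CPM. Lesional libraries measured 4.53, 2.06, 1.20, 13.9 and 0.486 CPM, and replicate 11 held 60.9% of the 46 lesional counts. The lesional SD was 3.82 times what counting alone would give, and replicates 2 and 11 were the highest lesional libraries. Without the filter on low counts, the log2 fold change of lesional skin was 0.29 (SE 0.62, 95% interval -1.01 to 1.58; edgeR adjusted p = 0.939) against WT. It turned to -0.80 without lesional replicate 11, and to -1.52 (SE 0.67, 95% interval -2.84 to -0.20; edgeR adjusted p = 0.847; exact permutation p = 0.0714) without replicates 2 and 11. Against non-lesional skin the values were 0.74 (SE 0.73; edgeR adjusted p = 0.781) with all 5 lesional libraries, -0.33 without replicate 11 and -1.05 (SE 0.71; edgeR adjusted p = 0.816) without both. Non-lesional skin differed from WT by -0.46 (SE 0.47, 95% interval -1.38 to 0.46; edgeR adjusted p = 0.825), or -0.96 without non-lesional replicate 12.

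*Zbp1* (ENSMUSG00000027514, chr2:173206612-173218923, reverse strand) varied most between libraries relative to its mean level. WT libraries measured 1.16, 2.19, 0.897, 0 and 1.504 CPM, from 0 to 5 counts. Non-lesional libraries measured 4.01, 0.425, 0, 6.01 and 2.63 CPM, and replicates 3, 12 and 15 exceeded every WT library. Lesional libraries measured 9.50, 0, 2.002, 27.9 and 1.95 CPM. Lesional replicates 2 and 11 held 77 of the 86 lesional counts (89.5%), and the other 3 lay within the WT range. The libraries at 0 allow up to 3 counts, equal to 1.27 CPM in WT replicate 10, 1.24 CPM in non-lesional replicate 9 and 1.54 CPM in lesional replicate 5, for counting error only.

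Without the filter on low counts, the log2 fold change of *Zbp1* was 1.15 in non-lesional skin against WT (SE 0.61, 95% interval -0.05 to 2.34; edgeR adjusted p = 0.747; exact permutation p = 0.508) and 0.58 without non-lesional replicate 12. In lesional skin it was 2.79 against WT (SE 1.20, 95% interval 0.04 to 5.54; edgeR p = 0.0477, adjusted p = 0.721; exact permutation p = 0.214). That value was 1.51 without lesional replicate 11 and 0.22 (SE 0.86; edgeR adjusted p = 0.970) without replicates 2 and 11. Lesional against non-lesional skin gave 1.63 (SE 1.19; edgeR adjusted p = 0.730), 0.37 without replicate 11 and -0.91 (SE 0.69; edgeR adjusted p = 0.816) without both. The hyperplastic epidermis, neutrophil-list and interferon gene sums were also highest in replicates 2 and 11, and their part in the levels of *Zbp1* and *Mlkl* was not tested.

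**Figure D3:**
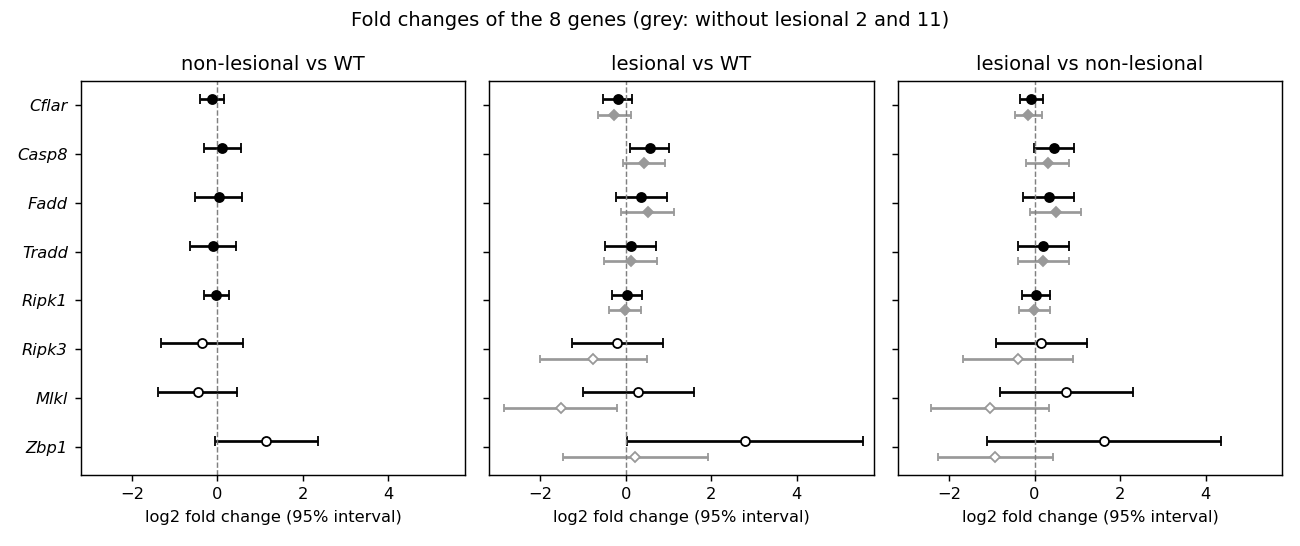
Log2 fold change with its 95% interval (horizontal axes) for each gene in the 3 comparisons; circles are from all 5 libraries a group, grey diamonds leave out lesional replicates 2 and 11, and open symbols are from the fit without the filter on low counts. The interval of *Casp8* between lesional and WT skin (0.10 to 1.02) lies above 0 with all libraries, and *Mlkl* moves from 0.29 to -1.52 without replicates 2 and 11.

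Ratios among the necroptosis genes were set by few counts. There were 0.0612 *Ripk3* counts per *Ripk1* count in WT (geometric mean), 0.0530 in non-lesional and 0.0554 in lesional skin. The log2 difference was -0.21 for non-lesional against WT (exact permutation p = 0.611), -0.14 for lesional against WT (exact permutation p = 0.770) and 0.06 for lesional against non-lesional skin (exact permutation p = 0.881). The ratio of *Mlkl* to *Ripk3* averaged 1.22, 0.943 and 1.01, with an SD of 1.19 to 1.25 on the log2 scale in each group. Its differences, in the same order, were -0.38, -0.28 and 0.10 (exact permutation p = 0.619, 0.691 and 0.881).

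*Zbp1* is induced by type I interferon, and its level was set beside 28 other interferon response genes, led in level by *Ifitm3*. Their summed level was 544 to 662 CPM in WT libraries. It reached 1096, 648, 844, 1242 and 1109 CPM in the non-lesional and 2094, 654, 777, 4169 and 1043 CPM in the lesional libraries. The 3 highest non-lesional sums were those of replicates 3, 12 and 15, which also had the 3 highest non-lesional *Zbp1* levels. As a description over the 15 libraries, which share their group labels and depth, Spearman's rho with this sum was 0.71 for *Zbp1*, 0.51 for *Casp8* and between -0.19 and 0.26 for the other 6 genes. Over the 13 libraries without lesional replicates 2 and 11 it was 0.55 for *Zbp1*, while *Casp8* (0.31) was no longer apart from *Fadd* (0.31), *Tradd* (0.29) and *Ripk3* (-0.30). Lesional replicate 11, with the highest sum, was also the highest of the 15 libraries for *Casp8*, *Mlkl*, *Tradd* and *Zbp1*, and it ranked 14 from the top for *Fadd* and *Ripk1*.

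**Figure D4:**
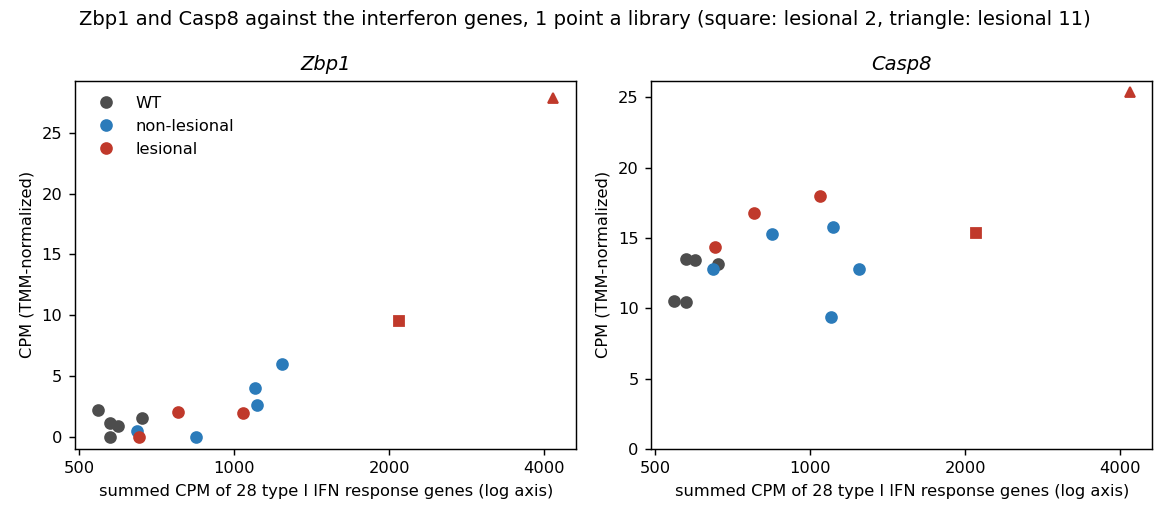
CPM of *Zbp1* and *Casp8* (vertical axes) against the summed CPM of 28 type I interferon response genes (horizontal log axes), 1 point for each of the 15 libraries, coloured by group. Lesional replicate 11 lies at the top right of both panels (27.9 CPM for *Zbp1*, 25.4 CPM for *Casp8*, sum 4169 CPM).

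The filter on low counts keeps a gene that has about 10 counts in 5 libraries, so that a gene can pass through the group in which it is high, and lists are therefore also described over all their genes without the filter. Over all 28 interferon genes, 26 were higher and 2 lower in non-lesional than in WT skin, where 52% of all genes were higher, and 19 were higher at an unadjusted p under 0.05, against 2.33% of all genes (median log2 fold change 0.77). In lesional against WT skin all 28 were higher, where 50.6% of all genes were, and 23 at this p, against 3.06% (median 1.82). Both comparisons share the WT libraries. In each comparison 20 of the 28 passed the filter, though not the same 20, and 16 and 19 of them were higher at this p (medians 0.80 and 1.62). None passed the adjusted threshold. Of all genes that passed the filter 1.85% were higher and 1.31% lower at this p in non-lesional against WT skin. *Rtp4* measured 5.28 ± 1.79 CPM in WT, 18.0 ± 10.3 in non-lesional and 54.8 ± 66.4 in lesional skin (SD, n = 5), with every library of both OTULIN E-KO groups above every WT library. Such separation was found for 0.384% of genes in non-lesional skin. *Ddx60*, a helicase-like antiviral gene, gave log2 fold changes of 1.49 (SE 0.39) and 2.38 (SE 0.61), and *Irf9*, a subunit of the factor that binds interferon response elements, 0.78 (SE 0.18) and 1.21 (SE 0.33). Among the genes that passed the filter, *Ifit1* had the smallest adjusted edgeR p of the non-lesional comparison (log2 fold change 2.15, SE 0.41, adjusted p = 0.723). *Ifit1* had at least 10 counts in 2 of 5 WT and in all non-lesional libraries. Between lesional and non-lesional skin all 28 were higher, where 50.8% of all genes were, 2 of them at this p, against 2.63% (median 0.94). Leaving out lesional replicates 2 and 11 was applied to these lists after their values were seen. Over all 28 interferon genes, 26 were then higher than in WT, where 45.5% of all genes were, and 9 were higher at an unadjusted p under 0.05, against 2.01% of all genes higher and 2.48% lower (median 0.51). Of the 20 that passed the filter 7 were higher at this p (median 0.54), against 1.42% of all genes higher and 1.51% lower. *Ddx60*, *Irf9* and *Rtp4* gave 1.06, 0.52 and 1.17 in this setting. Against non-lesional skin 3 of the 28 were higher, where 46.4% of all genes were, and 5 were lower at this p, against 1.99% of all genes higher and 2.51% lower (median -0.33). Of the 23 that passed the filter 2 were higher (median -0.28), against 50.3% of all genes, and 1 was lower at this p, against 1.47% of all genes higher and 2.04% lower.

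Upstream of the core, the genes around TNF receptor 1 had medians close to 0. Of 21 genes of the TNF receptor 1 complex and its ubiquitin regulators 19 were tested. The median log2 fold change was 0.01 in non-lesional and 0.05 in lesional skin against WT, and -0.01 between them. An unadjusted p under 0.05 was found for 1 of the 19 genes in each comparison with WT, where 1.85% (non-lesional) and 3.24% (lesional) of all genes were higher at this p, so that the count was close to the background. This gene was *Traf2*, which encodes the adaptor that recruits ubiquitin ligases to the receptor complex. It measured 4.56 ± 2.44 CPM in WT, 7.80 ± 2.08 in non-lesional and 8.33 ± 3.48 in lesional skin, with log2 fold changes of 0.77 (SE 0.33; edgeR adjusted p = 0.9998) and 0.88 (SE 0.39; edgeR adjusted p = 0.926). The groups overlapped in both, and *Traf2* passed the filter with at least 10 counts in 2 of 5 WT, 5 of 5 non-lesional and 4 of 5 lesional libraries. *Rbck1* and *Rnf31*, which encode the LUBAC subunits HOIL-1 and HOIP that build linear chains, gave 0.28 (SE 0.19) and 0.40 (SE 0.29) in lesional skin against WT, and 0.04 and 0.08 without replicates 2 and 11. Over all 21 genes without the filter the medians were -0.0032 in non-lesional and 0.0566 in lesional skin against WT. In each of these comparisons 1 gene was higher at an unadjusted p under 0.05, against 2.33% and 3.06% of all genes.

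Among 8 death ligand and receptor genes 5 were tested, and 1 was higher at an unadjusted p under 0.05 between lesional and WT skin, as were 3.24% of all genes. Over all 8 genes without the filter 2 were higher at this p, against 3.06% of all genes, and 2 were higher in lesional against non-lesional skin, against 2.63%, with medians of 0.16 in non-lesional and 0.64 in lesional skin against WT and 0.30 between them. The gene higher at this p among the 5 tested was *Tlr3*, the receptor for double-stranded RNA that signals to RIPK1 and RIPK3 through TRIF. It measured 5.28 ± 1.97 CPM in WT, 6.43 ± 3.07 in non-lesional and 10.5 ± 5.05 in lesional skin. Its lesional log2 fold change was 0.99 (SE 0.35; edgeR adjusted p = 0.926), and 0.67 without replicates 2 and 11. *Ticam1*, which encodes TRIF, gave 0.49 (SE 0.30) in non-lesional and -0.03 (SE 0.33) in lesional skin against WT. *Fas* gave -0.45 (SE 0.35) and *Tnfsf10*, the gene of the ligand TRAIL, 0.47 (SE 0.51) in lesional skin. Without replicates 2 and 11 *Tnfsf10* turned to -0.21 and *Fas* was at -0.82. The median of the 5 genes was 0.29 in non-lesional and 0.32 in lesional skin against WT, 0.05 between them, and -0.21 in lesional skin against WT without replicates 2 and 11.

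The 12 necroptosis regulators were all tested, and their median was 0.00 in non-lesional skin, 0.08 in lesional skin against WT and 0.11 in lesional against non-lesional skin. *Adar*, encoding the RNA-editing enzyme that keeps double-stranded RNA from activating ZBP1, measured 13.7 ± 2.04 CPM in WT, 18.2 ± 3.19 in non-lesional and 26.5 ± 15.2 in lesional skin. The log2 fold change was 0.41 (SE 0.19; edgeR adjusted p = 0.9998) and 0.94 (SE 0.34; edgeR adjusted p = 0.926), the latter 0.23 without replicates 2 and 11. *Hsp90aa1*, encoding a chaperone of RIPK1, RIPK3 and MLKL, gave 0.48 in non-lesional (SE 0.14; edgeR adjusted p = 0.9998) and 0.40 in lesional skin (SE 0.19; edgeR adjusted p = 0.926), and *Hsp90ab1* 0.09 (SE 0.11) and 0.25 (SE 0.15). In the setting without replicates 2 and 11 *Hsp90aa1* gave 0.23 in lesional skin. Of the 12 genes, 2 were higher at an unadjusted p under 0.05 in non-lesional skin (*Adar* and *Hsp90aa1*), against 1.85% of all genes, and 1 in lesional skin (*Adar*), against 3.24%. In the fit without the filter 1 of the 12 was higher at this p in non-lesional skin, against 2.33% of all genes. In lesional skin 2 were, against 3.06%.

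Downstream of caspase-8, 13 genes of caspases and apoptosis execution were tested, with medians of 0.00 in non-lesional and -0.01 in lesional skin against WT and 0.09 between them. *Casp6*, an executioner caspase that is also abundant in epidermis, measured 24.4 ± 2.69 CPM in WT, 25.2 ± 0.991 in non-lesional and 39.2 ± 12.3 in lesional skin. Its lesional log2 fold change was 0.68 against WT (SE 0.21; edgeR adjusted p = 0.926) and 0.63 against non-lesional skin (SE 0.20; edgeR adjusted p = 0.973). Every lesional library lay above every non-lesional library, which held for 0.28% of genes; unadjusted p under 0.05 between these groups was found for 2.89% of genes higher and 1.33% lower. Without replicates 2 and 11 its difference from WT was 0.32. *Htra2* and *Dffa* gave -0.35 (SE 0.29) and -0.33 (SE 0.29) in lesional skin. In the fit without the filter 1 of the 13 was higher at an unadjusted p under 0.05 in lesional against WT skin, against 3.06% of all genes. Against non-lesional skin 2 were, against 2.63%.

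The BCL2 family, which controls the mitochondrial route, had 9 of 14 genes tested and none at an unadjusted p under 0.05 in any comparison (medians -0.04, -0.14 and 0.01 in the order above; over all 14 without the filter 1 was higher at this p in lesional against WT skin, as were 3.06% of all genes). Between lesional and WT skin 3.24% of the genes that passed the filter were higher and 1.56% lower at this p. *Bok*, *Bcl2l1*, *Bcl2l2* and *Bcl2l11* gave lesional log2 fold changes against WT of 0.62 (SE 0.33), -0.27 (SE 0.18), -0.26 (SE 0.28) and -0.16 (SE 0.33). Without replicates 2 and 11 *Bok* turned to -0.10 and *Bcl2l11* was at -0.54. Of 12 pyroptosis genes 7 were tested, with medians of -0.09, 0.25 and 0.23, and 1 of 7 was higher at an unadjusted p under 0.05 in lesional against non-lesional skin, as were 2.89% of all genes. Over all 12 without the filter, 10 were higher in lesional than in WT skin, where 50.6% of all genes were. Of these, 3 were higher at this p, against 3.06% of all genes. Against non-lesional skin 11 were higher, where 50.8% of all genes were, 4 of them at this p, against 2.63%. The medians over all 12 were 0.03, 0.72 and 0.77. *Casp4*, encoding the sensor of intracellular lipopolysaccharide, gave 1.25 in lesional against non-lesional skin (SE 0.55; edgeR adjusted p = 0.973) and 0.90 against WT (SE 0.50; edgeR adjusted p = 0.926). *Casp1* and *Gsdma* gave 0.87 (SE 0.59) and 0.56 (SE 0.45) against WT. Without replicates 2 and 11 all 7 pyroptosis genes that passed the filter were lower than in WT (median -0.37). In this setting 48.7% of all genes that passed it were higher. None of the 7 had an unadjusted p under 0.05, and *Casp4* was at -0.41, *Casp1* at -0.40 and *Gsdma* at -0.49. Without the filter 11 of all 12 were lower (median -0.25), where 45.5% of all genes were higher. Of the 12, 1 was lower at this p, against 2.48% of all genes.

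**Figure D5:**
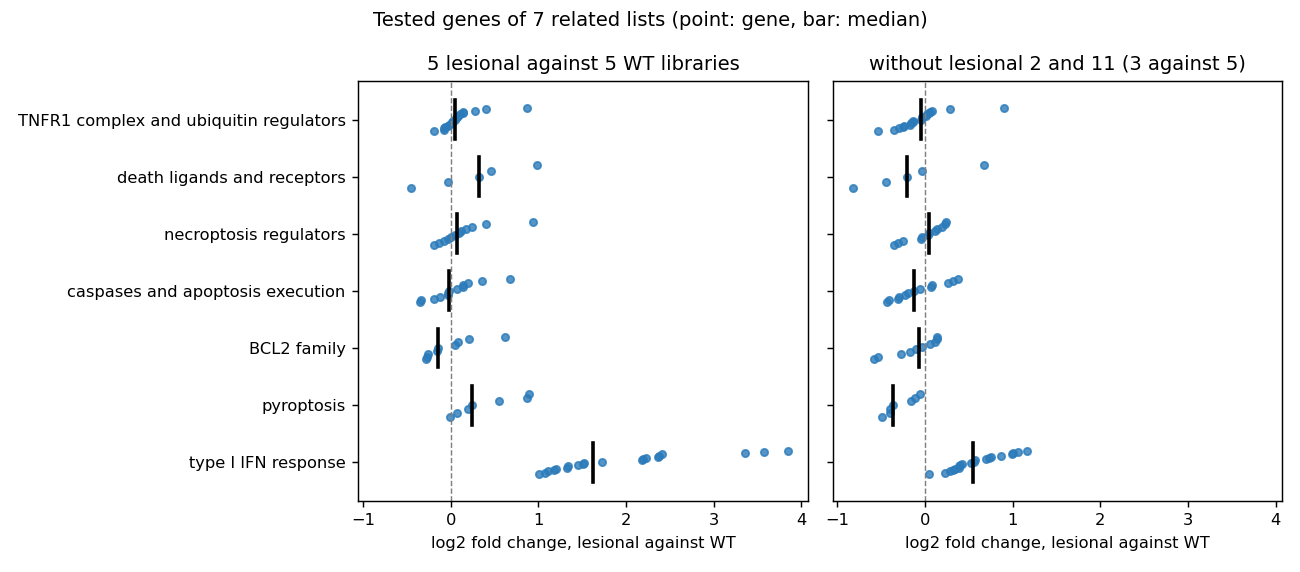
Log2 fold change between lesional and WT skin (horizontal axes) of the genes of 7 lists that passed the filter, with a bar at each median, for all libraries and without lesional replicates 2 and 11. The median of the type I interferon list moves from 1.62 to 0.54 and that of the pyroptosis list from 0.25 to -0.37, while the lists around TNF receptor 1 and the executioners stay near 0.

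The genes most like each member over the 15 libraries were sought among 12520 others with a mean of at least 5 CPM, by Spearman's rho of their levels, as a description of libraries that share groups and depth. *Casp8* was followed most closely by *Tfip11* (rho 0.89, and 0.90 over the 13 libraries without lesional replicates 2 and 11), *Rubcn* (0.87 and 0.88) and *Def8* (0.85 and 0.81). For *Cflar* they were *Itch* (0.88 and 0.88), *Pcsk7* (0.83 and 0.84) and *Gapvd1* (0.80 and 0.79). *Tradd* was closest to *Anxa4* (0.91 and 0.90), *Elof1* (0.84 and 0.77) and *Sgsh* (0.84 and 0.83), and *Fadd* to *Saal1* (0.82 and 0.82), *Ranbp6* (0.81 and 0.77) and *Mrpl52* (0.78 and 0.82). *Ripk1* was closest to a gene listed only as ENSMUSG00000102657 (0.84 and 0.85), *Zfp12* (0.82 and 0.81) and *Vgll3* (0.79 and 0.80). *Ripk3*, *Mlkl* and *Zbp1* were below this level and were not compared.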

How the data were processed

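QuantSeq 3′ libraries of the 15 skin samples were processed by the authors before deposit: adaptors were clipped with cutadapt 2.10 (minimum length 35), reads mapped with subread-align 2.0.1 to GRCm38 and spike-in sequences, primary matches of mapping quality 30 or more kept with SAMtools 1.7-2, and matches assigned to exons per gene with featureCounts 2.0.1 (overlap of at least 20 bases, a match counted for each gene it overlaps). No strand option is listed, and the annotation release is not given in the sources used here. The deposited counts are not normalized, and all tests used them. The deposited CPM equal each count over its library total and were not used for tests. The 92 spike-in rows were at 0 and left out. Processing notes also name edgeR 3.30.3, and the authors compared groups with DESeq2. The paper states its RNA integrity limit both as a ground for exclusion and for the samples included. No integrity value per sample is given in the sources used here, so RNA quality was not examined.

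Each comparison was fitted on its 2 groups with edgeR 4.0.16 in R 4.3.3 (TMM, filterByExpr, robust quasi-likelihood F-test, Benjamini-Hochberg adjustment over all genes tested). Displayed CPM are TMM-normalized over all 15 libraries. Standard errors were obtained from the F statistic. Exact permutation tests (scipy 1.17.1) were two-sided. The fit was first tested on simulated data. A floor of 3 counts stands for 0, and PCR copies were not removed, so intervals and floors cover counting error only. Coordinates are from GENCODE M21 (GRCm38), and windows before starts from RefSeq, which matched *Cflar*, *Casp8*, *Fadd*, *Mlkl*, *Ripk1* and *Ripk3*; *Zbp1* and *Tradd* had no entry.

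The 8 genes and all lists were chosen with earlier results of these data known. Named beside the members are, of each pathway list, at most 3 genes with the smallest p between lesional and WT skin and 1 more between non-lesional and WT skin, the highest gene of each cell type list and those at 0 throughout, and the 3 genes closest to each member of at least 5 CPM. A gene that this rule names is not reported here. Alternatives were DESeq2 1.42.0, limma 3.58.1 voomWithQualityWeights, DESeq2 size factors in edgeR, no filter, at least 10 counts in every library, all 15 libraries in 1 fit, 2 added to counts for ratios, leaving out each replicate, and leaving out lesional replicates 2 and 11 together, which was added for the pathway lists after their values were seen, as were the lists without the filter and a block of neighbouring sample numbers in edgeR. The symbol *Bcl2l2* stood on 2 rows, of which the row annotated as *Bcl2l2* by GENCODE was used.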

Additional observations from a re-analysis of the deposited data

Results flagged for a closer look

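In 33 sets of 5 libraries (8 genes and 3 ratios in 3 groups), a library far from the other 4 of its group was marked in 2, by Dixon's test, which by chance marks about 1 set in 20. WT replicate 7 had 1.79 CPM of *Mlkl*, below the other WT libraries (3.76 to 4.37 CPM); the gap was 0.762 of the range. WT replicate 10 had 41.4 CPM of *Cflar*, below the other WT libraries (62.1 to 67.3 CPM), with a gap of 0.7995 of the range; it is also the WT library with the lowest *Cflar* to *Casp8* ratio.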

How the results depend on the processing

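Of 397 member fold changes under an alternative, 368 kept their direction, 29 turned (for 12 of 24 member comparisons) and none reached an adjusted p under 0.05 (smallest 0.146). Apart from settings that left out libraries, only *Tradd* (-0.0543 with voomWithQualityWeights) and *Mlkl* (-0.11 with the block described below) turned, both in lesional against WT skin. Genes passing the adjusted threshold numbered 1 with DESeq2 and 18 without the filter between non-lesional and WT skin, and 14 with DESeq2 between lesional and WT skin; leaving out 1 replicate gave 0 to 5 (5 without non-lesional replicate 6), 0 to 0 and 0 to 0 in the 3 comparisons.

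Without lesional replicates 2 and 11, differences turned for *Ripk1* (-0.0274 from WT, -0.0023 from non-lesional skin), *Mlkl* (-1.52 and -1.05), *Ripk3* (-0.39) and *Zbp1* (-0.91) from non-lesional skin, and for the *Ripk3* to *Ripk1* (-0.32) and *Mlkl* to *Ripk3* (-0.54) ratios from non-lesional skin; the *Cflar* to *Casp8* ratio kept its direction (-0.67 from WT, -0.47 from non-lesional skin) with an exact permutation p over 0.05. The cause was not tested.

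Leaving out 1 replicate at a time, non-lesional against WT differences ran from -0.11 to 0.0627 for *Ripk1*, -0.55 to 0.0819 for *Ripk3*, -0.15 to 0.17 for *Fadd* and -0.29 to 0.0395 for *Tradd*. Lesional against WT differences ran from -0.0657 to 0.10 for *Ripk1*, -0.53 to 0.24 for *Ripk3*, -0.80 to 0.58 for *Mlkl*, -0.0282 to 0.25 for *Tradd* and 0.40 to 0.63 for *Casp8*. Lesional against non-lesional differences ran from -0.0418 to 0.12 for *Ripk1*, -0.16 to 0.37 for *Ripk3*, -0.33 to 1.24 for *Mlkl*, 0.37 to 2.21 for *Zbp1*, 0.0799 to 0.41 for *Tradd*, 0.23 to 0.51 for *Fadd* and 0.29 to 0.52 for *Casp8*. The *Cflar* to *Casp8* ratio ran from -0.36 to -0.10 (non-lesional against WT), -0.88 to -0.61 (lesional against WT) and -0.61 to -0.37 (lesional against non-lesional). In the same order *Ripk3* to *Ripk1* ran from -0.41 to 0.0188, -0.43 to 0.13 and -0.22 to 0.34, and *Mlkl* to *Ripk3* from -0.89 to -0.05, -0.80 to 0.19 and -0.26 to 0.57.

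*Ripk3*, *Mlkl* and *Zbp1* had 0 to 56 counts a library, and they had no value with at least 10 counts in every library or with voomWithQualityWeights.

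The groups share no replicate numbers and no label pairs their samples. Sets of neighbouring numbers (1 to 3, 4 to 6 and so on) nevertheless deviated together: within a set, the deviations from the group means over 12521 genes had a correlation of 0.12 to 0.29 between non-lesional and WT, 0.14 to 0.44 between lesional and non-lesional and -0.12 to 0.27 between lesional and WT libraries, and 10, 8 and 5 of 10 libraries were closest to their own set. This is a hint from the data, not the design. With these sets as a replicate block, chosen after the data were seen, edgeR called 8, 0 and 0 genes (non-lesional against WT, lesional against WT, lesional against non-lesional), none of them a member. *Casp8* was at 0.54 (lesional against WT) and 0.44 (lesional against non-lesional), and *Zbp1* in lesional against non-lesional skin had the smallest adjusted p of the members (1.40; edgeR adjusted p = 0.146).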
